A study of Prunus dulcis with 36 samples.

Results

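Abnormal and normal fruits of almond (Prunus dulcis, cultivar 'ZhiPi') at 22 days after flowering (DAF) were compared over all 8676 unigenes listed in the deposited columns. A unigene is a transcript assembled from the reads without a genome and carries a number in place of a gene name. The comparison takes 6 of the 36 samples of the series, 3 of abnormal fruits (A22) and 3 of normal fruits (N22), and the other samples are the same fruit types at 12, 17, 27, 32 and 37 DAF. Abnormal fruits are those that had stopped growing and shrivelled, and they were picked from branches that also bore normal fruits. Both groups came from the same cultivar in the same orchard and received no experimental treatment, and each sample pooled several whole fruits. The deposited value is FPKM, fragments mapped to a transcript scaled for its length and the size of the library, given as the authors' mean over the 3 samples of a group. With 1 mean per group, no spread between samples, test or P-value accompanies any difference below, and the number of reads behind a value is unknown. In whole fruits, fewer cells of a type and less RNA per cell cannot be told apart.

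Young almond fruits that are not retained on the tree are shed in the weeks after flowering. Before they separate, they stop growing, and their supply of sugars from the leaves and the balance between growth hormones and the stress hormones abscisic acid and ethylene are known to change. Auxin exported from a growing fruit keeps the separation zone of its stalk inactive.

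Differences were taken as log2(FPKM + 1) in A22 minus that in N22, and a unigene was counted as higher or lower in abnormal fruits when this difference was larger than 1 in size. Adding 1 damps ratios of values close to 0, so changes of weakly expressed unigenes are understated. By this rule 615 unigenes were higher in abnormal fruits (7.09% of those listed) and 1264 were lower (14.6%). Most of these calls were against a listed 0: 461 of the 615 higher ones had 0 in N22 (5.31% of those listed) and 826 of the 1264 lower ones had 0 in A22 (9.52%). Among the 4211 unigenes above 0 in both groups, 154 were higher (3.66%) and 438 lower (10.4%), and no rise but 8 falls were larger than 3. Where at least 1 of the groups also reached 10 FPKM, 88 of 2274 were higher and 213 lower.

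The balance of directions depended on the scaling. Scaling by the median of ratios, taken over 3099 unigenes with no 0 in any group, placed A22 at −0.28 on the log2 scale relative to N22, and which scaling fits these fruits was not tested. With the columns scaled in this way, unigenes above 0 in both groups split into 305 higher and 280 lower, so 52.1% of the calls were higher, against 26.0% as deposited. Over all listed unigenes the calls were 792 higher and 1074 lower. The individual differences below are as deposited, and the scaled value is given where it changes the reading.

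**Figure D1:**
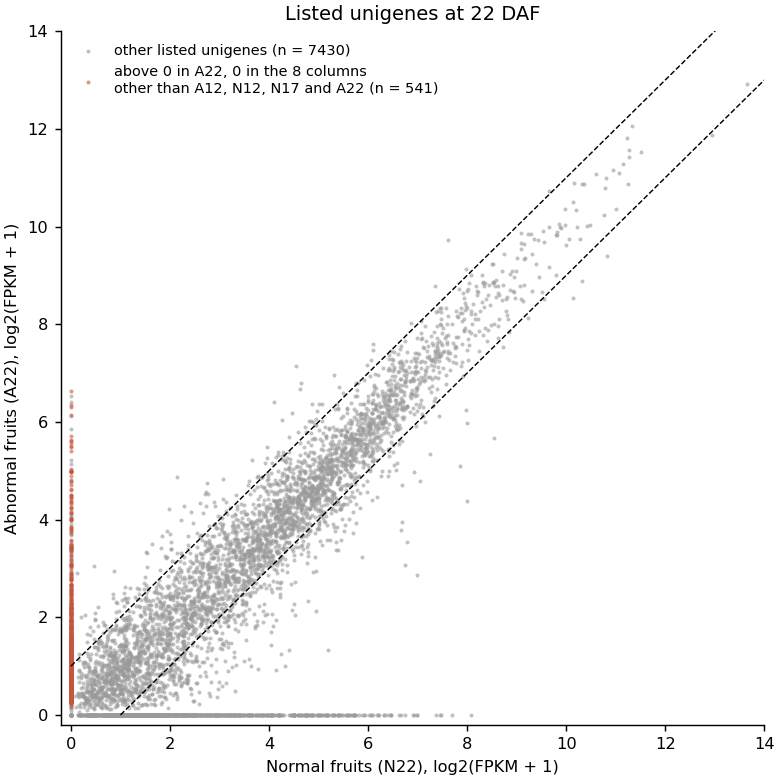
Each point is 1 listed unigene, with its value in abnormal fruits (A22) on the y axis against that in normal fruits (N22) on the x axis, both in log2(FPKM + 1), and the dashed lines mark differences of 1 and −1 (unigenes at 0 in both that belong to the set described next are not drawn). The 541 red points, all on the y axis, are unigenes above 0 in A22 that were at 0 in N22 and in 7 further groups.

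One part of the higher calls stood apart from the rest. Across the 12 groups, 1246 unigenes were above 0 in A12, N12, N17 or A22 only and at 0 in the 8 other groups, N22 included. Of these, 541 were above 0 in A22, and 489 of those were also above 0 in A12, N12 or N17. They made up 305 of the 615 higher calls (49.6%) and 305 of the 461 unigenes with at least 1 FPKM in A22 and 0 in N22. Without the 1246, 310 unigenes were higher in abnormal fruits, or 4.17% of the 7430 that remain. The 1264 lower ones could not change, since every member of the set is at 0 in N22. This set was defined with the data in view.

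For a part of these unigenes, the study's annotation shows what they are most like. Of the listed unigenes, 740 (8.53%) have an entry in the parts of that annotation held here, with the organism of the best protein match. The family of almond, Rosaceae, was the best match for 444 of them, of which 22 were higher (4.95%) and 43 lower (9.68%) in abnormal fruits, against 7.09% and 14.6% of all listed unigenes. Brassicaceae, the family of cabbage and Arabidopsis, was the best match for 172, of which 44 were higher (25.6%) and 0 lower. All 172 were at 0 in N22, so none of them could be lower. A fungus, oomycete or alga was the best match for 65, of which 6 were higher (9.23%) and 15 lower (23.1%). The Brassicaceae matches accounted for 171 of the 198 unigenes with an entry in the set of 1246, and for 44 of its 53 higher calls with an entry. Most of the set, and most of its 305 higher calls, have no entry held here, so their best matches are unknown.

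Across the series, the Brassicaceae matches were either broadly present or nearly all at 0. They were above 0 for 96 of the 172 in A22, against 0 in N22. The other groups had 144 in A12, 123 in N12, 1 in A17 and 127 in N17, and 0 or 1 in each group from 27 to 37 DAF. Their summed FPKM was 148 in A22, against 0 in N22, and 583 in N17. Matches to fungi, oomycetes and algae ran the other way, with 1 of 65 above 0 in each of A12, N12 and N17, 40 in A17 and 26 to 37 in every group from 22 DAF on. At 22 DAF itself they were above 0 for 26 in A22, against 33 in N22. A22 was thus the 1 group that had many unigenes of both kinds. The Rosaceae matches showed no such pattern, with 310 of 444 above 0 in A22, against 323 in N22, and 288 to 338 over all groups. The part of foreign RNA, of the assembly or of the annotation in these values was not tested.

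**Figure D2:**
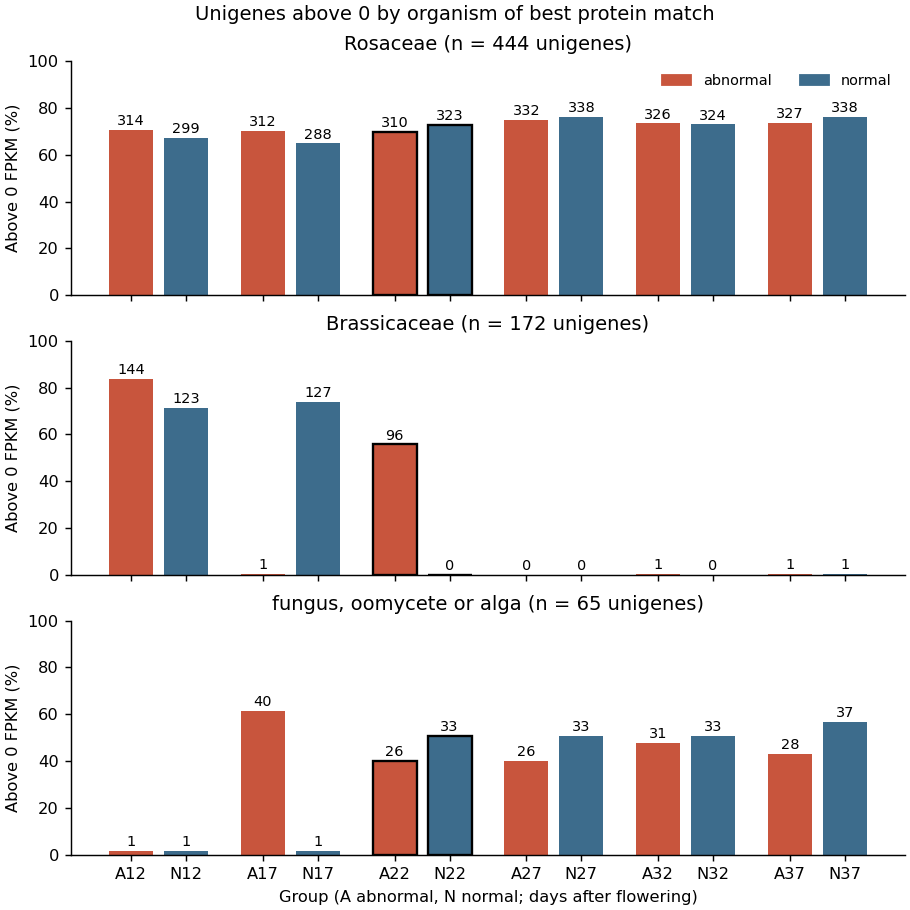
Bars give the share of unigenes above 0 FPKM in each of the 12 groups, abnormal (red) left of normal (blue) at each stage, for unigenes whose best protein match is in Rosaceae (n = 444), in Brassicaceae (n = 172) or in a fungus, oomycete or alga (n = 65), with their number above each bar. The 2 groups at 22 DAF are outlined: A22 had 96 of the 172 Brassicaceae matches above 0 and N22 had 0.

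Whole profiles were compared too. Pearson r across unigenes, in log2(FPKM + 1), describes this likeness, since unigenes are not replicates. Abnormal fruits at 22 DAF had an r of 0.871 with N22, of 0.863 with A12, 0.855 with N12, 0.818 with A17 and 0.891 with N17, the highest of the 11. With later groups it had 0.866 for N32, above both values at 12 DAF, 0.841 for A32 and 0.799 to 0.824 for the others. Normal fruits at 22 DAF had lower values with the earlier groups, of 0.790 with A12, 0.789 with N12, 0.772 with A17 and 0.802 with N17, and their highest apart from A22 was 0.861 with A27. Fewer unigenes differed by more than 1 between A22 and N17 (1647, or 19.0% of those listed) than between A22 and N22 (1879, or 21.7%), comparisons that share A22. Without the 1246 unigenes of the presence set this order held, with 1143 against 1574. The group labelled A17 differed from N22 at 3332 unigenes (38.4%), with 1038 higher and 2294 lower. The groups were taken as labelled throughout, and whether A17 and A22 had been exchanged was not tested.

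**Figure D3:**
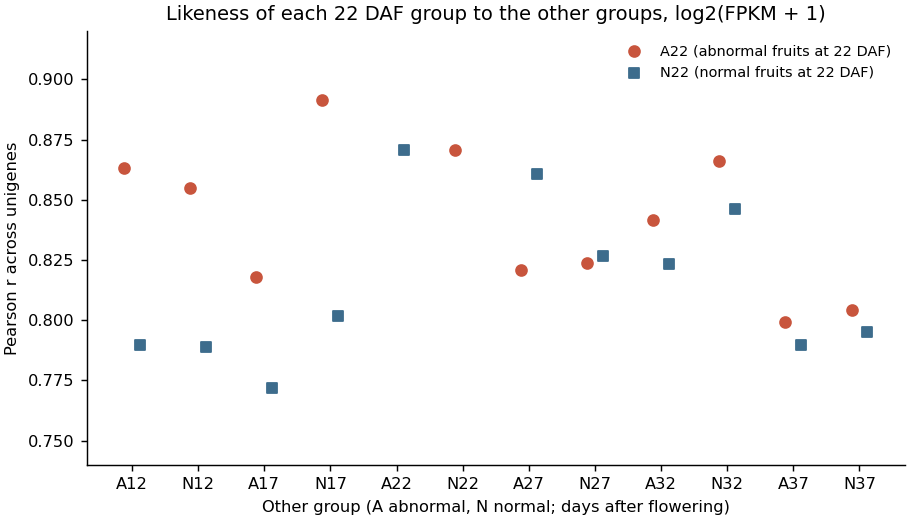
Pearson r across the 8676 listed unigenes, in log2(FPKM + 1), of abnormal (A22, red circles) and normal (N22, blue squares) fruits at 22 DAF with each of the other groups, on a y axis that starts at 0.74. A22 lies above N22 for all groups at 12 and 17 DAF, and its highest point is N17 at 0.891.

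Of the unigenes that were lower in abnormal fruits at 22 DAF, those above 0 in both groups were mostly higher late than early in fruit growth. For the 438 lower ones above 0 in both groups, the median was 2.76 FPKM in A22, against 9.28 in N22, which follows from the choice. In the other groups, which the choice did not use, their median lay between 1.43 and 3.15 FPKM at 12 and 17 DAF and between 4.78 and 7.68 FPKM from 27 to 37 DAF. In normal fruits, 346 of the 438 (79.0%) had a higher mean level at 27 to 37 DAF than at 12 and 17 DAF, against 64.0% of the 4211 unigenes above 0 in both groups. The later level was higher by more than 1 on the log2 scale for 45.2% of them, against 29.3%. In abnormal fruits the later level was higher for 92.7%, against 73.2%, and for 87.9%, against 67.8%, when 17 DAF was left out. Of the 826 lower ones listed at 0 in A22, 55.3% had the higher later level in normal fruits, against 55.9% of all listed unigenes. For 19.5%, against 26.5%, it was higher by more than 1. A lower later level was found for 13.3% of the 826, against 32.5%, and one lower by more than 1 for 3.39%, against 16.6%. The others had equal early and late levels, so the share that rose does not by itself give the direction. In abnormal fruits the later level was higher for 72.4% of them, against 60.3%. Both measures were settled on with the data in view.

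The 154 unigenes above 0 in both groups that were higher in abnormal fruits leaned the other way. In normal fruits, 64 of them (41.6%) fell by more than 1 between the early and the late stages, against 11.4% of all those above 0 in both groups, and 35 (22.7%) gained more than 1. Their median was 13.2 FPKM in A22, against 4.28 in N22. It was 2.60 to 4.81 FPKM at 12 and 17 DAF and 2.55 to 3.46 FPKM from 27 to 37 DAF. In the median the level in A22 thus exceeded that of every other group, which for N22 follows from the choice. The choice also favoured high values in A22 itself, so the excess over the groups of other stages is not independent of it.

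**Figure D4:**
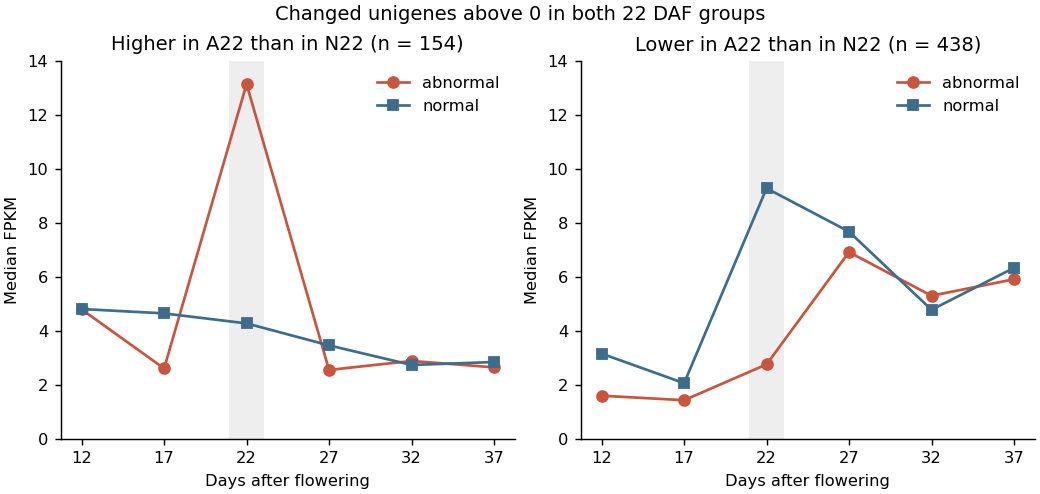
Median FPKM by days after flowering in abnormal (red circles) and normal (blue squares) fruits, for the 154 unigenes higher (left) and the 438 lower (right) in A22 than in N22 among those above 0 in both, with 22 DAF shaded. The gap at 22 DAF follows from the choice of unigenes. In the lower set the median was 1.43 FPKM in A17 and 2.06 in N17, and 6.92 in A27 and 7.68 in N27.

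The named falls had courses of several kinds. A putative invertase inhibitor (DN14218_c0_g1), of a protein family that blocks the enzymes splitting sucrose, had 74.6 FPKM in A22, against 253 FPKM in N22 (−1.75). Its level was 6.75 to 58.6 FPKM at 12 and 17 DAF and 129.6 to 299.6 FPKM from 27 DAF on, so A22 was nearer to the early range and N22 lay within the late one. Pathogenesis-related protein 1 (DN16394_c0_g1), a small secreted protein used as a marker of salicylic acid responses, had 16.8 FPKM in A22, against 50.6 FPKM in N22 (−1.54). Its other values were 1.53 to 7.47 FPKM before and 95.4 to 194 FPKM after this stage. The unigene with a domain of unknown function DUF1677 (DN15865_c0_g1) had the largest fall among named unigenes above 0 in both groups, with 2.52 FPKM in A22, against 15.95 FPKM in N22 (−2.27). In normal fruits it had 1.82 FPKM at 12 DAF, 2.13 at 17 DAF and 19.4 to 38.7 from 27 DAF on, while A17 had 15.2 FPKM, a level close to that of N22. Cyclin-U4-1 (DN18093_c0_g1), a regulator of cyclin-dependent kinases and the only member held of the cell division list with a Rosaceae match, had 9.83 FPKM in A22, against 26.1 FPKM in N22 (−1.32), and it had 19.8 FPKM in A17, against 9.72 FPKM in N17.

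Of the other named falls, a nerolidol synthase (DN14125_c0_g1), which makes a volatile terpene alcohol, had 0.738 FPKM in A22, against 5.11 FPKM in N22 (−1.81). TMV resistance protein N (DN28141_c3_g1), an intracellular immune receptor, had 0.663 FPKM in A22, against 4.06 FPKM in N22 (−1.60), and thionin-like protein 2 (DN16522_c0_g1) had 1.79 FPKM, against 7.36 FPKM (−1.58). Heavy metal-associated isoprenylated plant protein 26 (DN18117_c0_g1) had 10.1 FPKM in A22, against 32.7 FPKM in N22 (−1.60), and N22 was the highest of its 12 groups. These falls kept a size above 1 with median-of-ratios scaling. An uncharacterized mitochondrial protein (DN21510_c0_g1) had 1.79 FPKM in A22, against 8.36 FPKM in N22 (−1.75). The remaining 2 of the 10 named falls were 40S ribosomal protein S24-1 (DN16581_c0_g1, −1.57) and Sin3-like 2 (DN26283_c4_g1, −1.43), which have their best matches in Lotus and Citrus.

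The 10 named rises ran between 1.04 and 2.08. The largest was that of a unigene named after the olive pollen allergen Ole e 6 (DN15176_c0_g1), with 6.74 FPKM in A22, against 0.826 FPKM in N22 (2.08). It was followed by 40S ribosomal protein S27-3 (DN18113_c0_g1), which has its best match in the fungus Agaricus, with 9.14 FPKM in A22, against 1.86 FPKM in N22 (1.82). An Olee1-like protein (DN15953_c0_g1) had 3.60 FPKM in A22, against 0.453 FPKM in N22 (1.66). The allergen and the Olee1-like unigene were highest at 12 DAF, with 30.9 and 24.7 FPKM for the allergen in A12 and N12 and 15.01 and 10.7 FPKM for the Olee1-like one, and both were listed at 0 in every group at 32 and 37 DAF. RALF-like 22 (DN16370_c0_g1), from a family of secreted peptides that act on cell expansion, had 3.27 FPKM in A22, against 0.402 FPKM in N22 (1.61). CLE1p (DN13854_c0_g1), named after a family of small signalling peptides, had 8.25 FPKM in A22, against 2.77 FPKM in N22 (1.29). Of the unigenes named plant self-incompatibility protein S1, a family of small secreted proteins first described in poppy, DN15805_c0_g1 had 5.12 FPKM in A22, against 1.12 FPKM in N22 (1.53). The second, DN15904_c1_g1, had 3.99 FPKM, against 0.873 FPKM (1.41).

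Calmodulin-like proteins bind calcium, and 2 of the named rises carry this name. The calmodulin-like protein CML38 (DN27525_c2_g1) had 110.4 FPKM in A22, against 53.2 FPKM in N22 (1.04), and was the most strongly expressed of the 10 named rises. CML44 (DN13459_c0_g1) had 5.34 FPKM in A22, against 1.86 FPKM in N22 (1.15). The difference of CML38 passed 1 at 22 and 27 DAF, and that of CML44 at 12, 17, 22 and 37 DAF. The remaining named rise, 26S protease regulatory subunit 6A (DN16538_c0_g2, 1.16), has its best match in the fungus Chaetomium.

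Among unigenes above 0 in both groups, those with the largest differences had no name. DN17038_c0_g2 had 6.25 FPKM in A22, against 126 FPKM in N22 (−4.12), DN28142_c0_g1 had 1.51 FPKM, against 35.5 FPKM (−3.86), and DN25607_c0_g2 had 7.46 FPKM, against 106 FPKM (−3.66). At 27 DAF these differences had the opposite sign, with 66.1 FPKM in A27, against 17.7 in N27, for the first, 19.9 against 9.24 for the second and 61.7 against 10.4 for the third. The 3 largest rises among unigenes above 0 in both groups were those of DN24741_c1_g1 with 6.49 FPKM in A22, against 0.0876 FPKM in N22 (2.78), DN17505_c0_g1 with 28.2 FPKM, against 3.42 FPKM (2.73), and DN52172_c0_g1 with 139.8 FPKM, against 22.5 FPKM (2.58). The first was higher in N12 and N17 than in A22, and the second in N12 and N17 too, with 114 and 65.3 FPKM.

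DN52172_c0_g1 was at 0 in all 10 groups of other stages. It was 1 of 41 unigenes (0.473% of those listed) found above 0 in A22 and N22 and nowhere else. Their summed FPKM was 1265 in A22, against 761 in N22, and 26 of the 41 had the higher value in A22. Among the 36 with at least 10 FPKM in either group, the ratio of A22 to N22 ran from 0.417 to 6.22 with a median of 1.73, so they did not share a single ratio. A further 52 of the 8676 listed unigenes were above 0 in A22 alone and 84 (0.968%) in N22 alone. Every listed unigene differs by at least 1 from N12 in some group. Those found in A22 or N22 alone are therefore listed only because they reach 1 FPKM there.

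Unigenes with names that were at 0 in 1 of the groups had mixed best matches. The 5 highest in A22 with 0 in N22 were a coatomer subunit (DN1292_c0_g1, 25.1 FPKM), the ethylene-responsive factor ERF017 (DN15276_c0_g1, 18.2), an endonuclease (DN16133_c0_g1, 17.1), cullin-4 (DN11944_c0_g1, 13.0) and a rhamnose synthesis enzyme (DN13050_c0_g1, 10.1). The best matches of these were a mycorrhizal fungus, Arabidopsis, apple, Lotus and coffee, and the first 4 were above 0 in A22 only. In the other direction, a leucine-rich repeat protein (DN13736_c0_g1, 7.08 FPKM in N22) and an inactive leucine-rich repeat receptor-like protein (DN15061_c0_g1, 4.13) had their best matches in Prunus. The remaining 3, DAD1 (DN13208_c0_g1, 6.71), n-alpha-acetyltransferase 50 (DN12530_c0_g1, 4.61) and lactate/malate dehydrogenase (DN15548_c0_g1, 4.19), matched an oomycete, a fungus and a red alga.

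The study names 25 unigenes with their IDs, which it chose on these same samples, and at 22 DAF 1 of them was lower by more than 1 and 0 were higher. Over all listed unigenes the shares were 14.6% and 7.09%, and over those above 0 in both groups 10.4% and 3.66%. The 1 was the lactate/malate dehydrogenase with the red algal match. The differences of the 25 had a median of −0.37, or −0.10 with median-of-ratios scaling, and 17 of them were below and 7 above 0, with citrate synthase 4 (DN23508_c0_g1) at 0 in both groups.

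Among the 9 unigenes of carbon metabolism, 7 had lower values in abnormal fruits. Probable alkaline/neutral invertase B (DN27666_c0_g1), which splits sucrose in the cytosol, had 41.3 FPKM in A22, against 77.8 FPKM in N22 (−0.90). NADP-dependent malic enzyme 2 (DN7242_c0_g1), which turns malate into pyruvate, had 248 FPKM in A22, against 392 FPKM in N22 (−0.66). Fructose-1,6-bisphosphatase (DN18563_c0_g1), an enzyme of sugar synthesis, had 75.5 FPKM in A22, against 95.5 FPKM in N22 (−0.33, or −0.06 scaled). Fructose-bisphosphate aldolase (DN27174_c3_g1), of glycolysis, had 366 FPKM in A22, against 333 FPKM in N22 (0.13). None of these 4 passed 1. Aldose 1-epimerase, malate dehydrogenase DN15548_c0_g2 and succinate dehydrogenase were at 0.573 FPKM or less in both groups.

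All 7 hormone unigenes had lower values in abnormal fruits, none by more than 1. The abscisic acid receptors PYR1 (DN24477_c0_g1) and PYL8 (DN22391_c0_g1) had 273 and 22.6 FPKM in A22, against 454 and 38.1 FPKM in N22, with a difference of −0.73 for each. The third receptor, DN23029_c0_g1, had 56.1 FPKM in A22, against 58.8 FPKM in N22 (−0.06, or 0.21 scaled). IAA13, a repressor of auxin response genes, is present as 2 unigenes of 1 assembly component, between which reads could be divided. DN26918_c0_g2 had 354 FPKM in A22, against 559.6 FPKM in N22 (−0.66), and DN26918_c0_g1 had 21.4 FPKM, against 27.98 FPKM (−0.37). Auxin-induced protein 15A (DN18673_c0_g1) had 12.9 FPKM in A22, against 18.0 FPKM in N22 (−0.45), and gibberellin-regulated protein 11-like (DN26787_c1_g1) had 7.32 FPKM, against 9.89 FPKM (−0.39). The median of the 7 was −0.45 as deposited and −0.19 scaled.

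The most positive difference among the 25 was that of acyl-[acyl-carrier-protein] desaturase 6 (DN20506_c0_g1), which introduces the first double bond into plastid fatty acids. It had 174 FPKM in A22, against 87.3 FPKM in N22, and its difference of 0.98 became 1.26 with median-of-ratios scaling. Multicopper oxidase (DN19594_c0_g1) had 10.7 FPKM in A22, against 5.56 FPKM in N22 (0.84, or 1.08 scaled), and peroxidase 44 (DN24026_c1_g1) had 13.8 FPKM, against 8.72 FPKM (0.61). Purple acid phosphatase 15 (DN21705_c0_g1) had 3.01 FPKM in A22, against 3.93 FPKM in N22 (−0.30). Of the cell wall enzymes, glycosyl hydrolases family 28 (DN20503_c0_g2), the family of pectin-cutting polygalacturonases, had 10.6 FPKM in A22, against 5.95 FPKM in N22 (0.74). Glycosyltransferase like family 2 (DN23864_c0_g1) had 16.6 FPKM in A22, against 26.2 FPKM in N22 (−0.63). The Myb-like unigene DN21330_c0_g1 had 10.5 FPKM in A22, against 20.3 FPKM in N22 (−0.89), and MYB39 (DN26519_c2_g1) was near 1 FPKM in both groups.

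**Figure D5:**
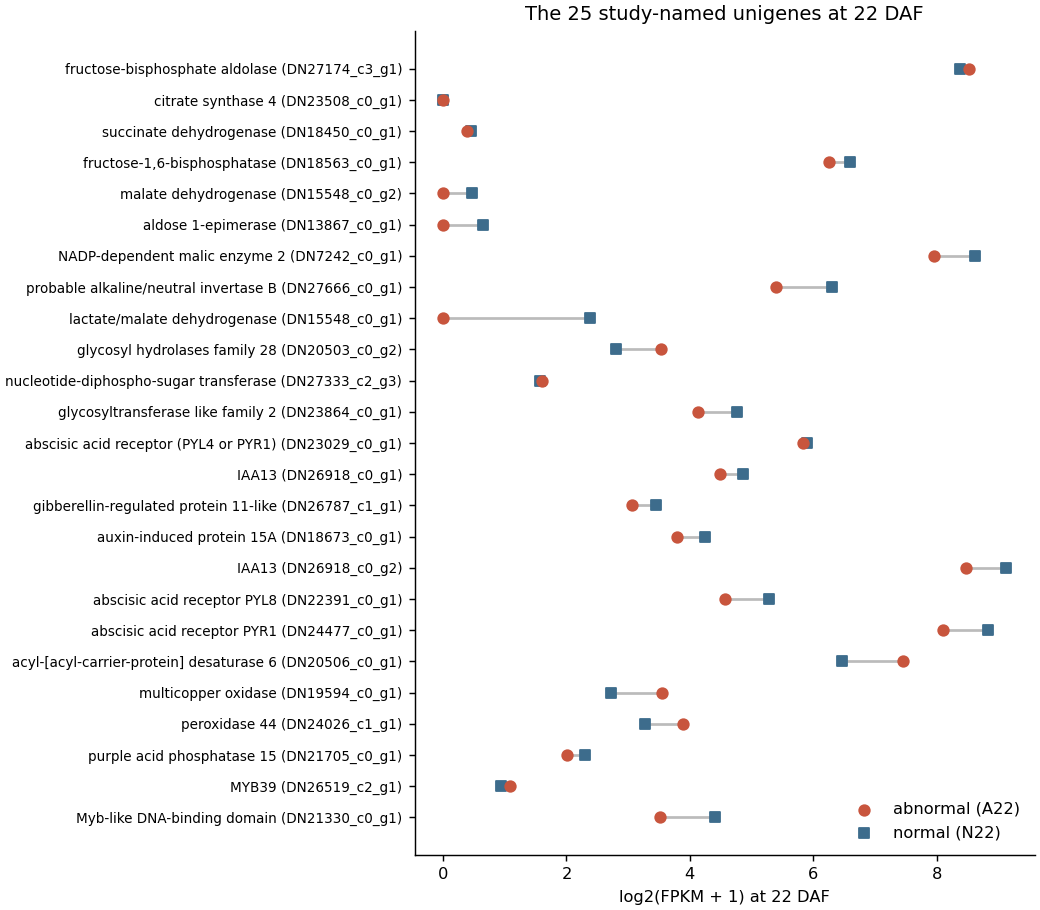
Level of each of the 25 unigenes that the study names, in log2(FPKM + 1), in abnormal (A22, red circles) and normal (N22, blue squares) fruits at 22 DAF, grouped by function. Of the 25, 17 lie lower in A22 and 7 higher, and the longest line is that of lactate/malate dehydrogenase DN15548_c0_g1, at 0 in A22 and 4.19 FPKM in N22.

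Gene lists drawn from the protein names were small, since few listed unigenes have an entry, and they were counted over members with a best match in Rosaceae. Over the 444 unigenes with a best match in Rosaceae 4.95% were higher and 9.68% lower, and over all listed unigenes 7.09% and 14.6%. Of 24 transcription factors, 0 passed 1 in either direction as deposited (2 higher of 27 with any best match), with a range of −0.97 to 0.93. Only 14 of the 24 reached 1 FPKM in A22 or N22, and a member below that in both groups cannot pass 1. WRKY75 (DN26011_c0_g2), a regulator of phosphate and stress responses in Arabidopsis, came nearest among the rises, with 46.2 FPKM in A22, against 23.7 FPKM in N22 (0.93, or 1.20 scaled). The ethylene-responsive factor WIN1 (DN16580_c0_g1), an activator of wax and cutin synthesis, had 3.30 FPKM in A22, against 7.45 FPKM in N22 (−0.97). All 7 members of the ethylene list lay between −0.97 and 0.80. YABBY 5 (DN10712_c0_g1) had 6.63 FPKM in A22, against 3.47 FPKM in N22 (0.77, or 1.001 scaled). Scaled, WRKY75 and YABBY 5 thus passed 1.

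The cell wall list had 1 higher and 2 lower of 8 members, with a median of −0.34. These 3, named after their values had been seen, were a pectinesterase 58 (DN26340_c0_g1) with 4.19 FPKM in A22, against 1.53 FPKM in N22 (1.04), another of that name (DN15790_c0_g1) at 0 in A22, against 1.79 FPKM in N22, and a glycosyl hydrolase family 10 unigene (DN14970_c0_g3) at 0, against 1.33 FPKM. Pectinesterases remove methyl groups from pectin. The receptor kinase list had 1 higher and 3 lower of 13, with a median of 0, each of these 4 at 0 in 1 of the groups and at 1.31 to 4.13 FPKM in the other. In the ubiquitin and proteasome list 1 of 14 was higher and 1 lower, and the higher one was an F-box protein (DN15785_c0_g1, 5.15 FPKM in A22 and 0 in N22) that belongs to the presence set of 1246. The ubiquitin ligases RHA2A (DN13251_c0_g1), known from abscisic acid signalling, and RMA1H1 (DN26268_c1_g2) had values of 25.4 and 82.0 FPKM in A22, against 16.02 and 59.2 FPKM in N22 (0.63 and 0.46). The defence list had 1 lower of 3, the pathogenesis-related protein above. Among the well-expressed members below 1, alpha-L-fucosidase 1 (DN13106_c0_g1) had 45.8 FPKM in A22, against 71.9 FPKM in N22 (−0.64), and pectinesterase 31 (DN15673_c0_g1) had 93.4 FPKM, against 105 FPKM (−0.17, or 0.10 scaled).

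No member passed 1 in the lists of ribosomal proteins (3), sugar metabolism and transport (3), auxin (3), ethylene (7), abscisic acid and gibberellin (2), redox (6), phenylpropanoids (2), lipids, cutin and wax (8), chaperones (6), transposable elements (3) and seed and embryo (5). A member below 1 FPKM in both groups cannot pass 1. Members that reached 1 FPKM in A22 or N22 were 3 ribosomal, 1 sugar, 1 auxin, 3 ethylene and 2 abscisic acid and gibberellin ones. For redox they were 4, phenylpropanoids 2, lipids 6, chaperones 6, transposable elements 0, and seed and embryo 3. Counted over members of any best match, which adds those matched to other families and organisms, calls were 4 higher and 1 lower of 30 ribosomal proteins, 2 and 1 of 9 in sugar metabolism and transport, 2 and 0 of 9 for ethylene, 2 and 1 of 13 for redox, 2 and 1 of 11 for chaperones and 1 and 0 of 10 for lipids. The 3 ribosomal proteins with a Rosaceae match had nearly the same difference, 0.34 for P3-2 (DN25591_c0_g1), 0.34 for L31 (DN15664_c0_g2) and 0.35 for L17-2 (DN17803_c0_g1). Their levels were 1017, 468 and 107 FPKM in A22, against 804, 369 and 83.8 FPKM in N22. Gibberellin 2-beta-dioxygenase 8 (DN24592_c0_g1), which inactivates gibberellins, had 13.1 FPKM in A22, against 6.72 FPKM in N22 (0.87, or 1.12 scaled), and its difference was above 0 at all 6 stages and passed 1 at 12 and 17 DAF. An L-ascorbate oxidase homolog (DN24542_c2_g4) had 108 FPKM in A22, against 68.4 FPKM in N22 (0.65), while monothiol glutaredoxin-S2 (DN16099_c0_g1) had 149.5 FPKM, against 238 FPKM (−0.67), and peroxidase 72 (DN18908_c0_g2) 7.197 FPKM, against 13.7 FPKM (−0.84).

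Chaperones and lipid proteins included members on both sides of 0. A DnaJ homolog (DN13967_c0_g1) had 918 FPKM in A22, against 629 FPKM in N22 (0.54), and Hsp70-Hsp90 organizing protein 2 (DN15740_c0_g1) had 19.05 FPKM, against 29.7 FPKM (−0.61). The lipid-transfer protein DIR1 (DN14988_c0_g1), a carrier in systemic defence, had 38.3 FPKM in A22, against 26.7 FPKM in N22 (0.50). Glycerol-3-phosphate acyltransferase 8 (DN15845_c0_g2), an enzyme of cutin synthesis, had 5.45 FPKM in A22, against 10.1 FPKM in N22 (−0.79).

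For tissue markers the data are thin. The photosynthesis list, a mark of green tissue, had no Rosaceae match and 3 members in all, with a summed 2.07 FPKM in A22, against 0 in N22. All 3 have their best match in Arabidopsis and belong to the presence set, which is at 0 in N22 by definition. They therefore give no measure of green tissue in the fruits. Of the 5 seed and embryo members, 3 reached 1 FPKM. Late embryogenesis abundant protein D-29 (DN16562_c0_g1) had 15.7 FPKM in A22, against 27.6 FPKM in N22 (−0.78), and a vicilin-like storage protein (DN13857_c0_g1) had 6.74 FPKM, against 4.17 FPKM (0.58). The share of seed or green tissue in the fruits of either group was not tested.

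The calls at 22 DAF were set beside those of the neighbouring stages, which come from other samples. Of the 615 unigenes higher in abnormal fruits at 22 DAF, 69 (11.2%) were also higher at 17 DAF, or 4.42% of the 1562 higher calls there, where 18.0% of listed unigenes were higher. Of the 1264 lower ones, 142 (11.2%) were lower at 17 DAF as well, or 6.95% of the 2042 lower calls there, where 23.5% of listed unigenes were lower. Among unigenes above 0 in both groups at 22 DAF, 43 of the 154 higher ones (27.9%) were also higher at 17 DAF, against 26.3% of all 4211, and 110 of the 438 lower ones (25.1%) were also lower, against 29.9%. The opposite direction was more frequent for the higher calls, since 321 of the 615 (52.2%) were lower in abnormal fruits at 17 DAF, and 254 of these 321 had a 0 at 22 DAF. The 254 include members of the presence set, which are at 0 in A17 by definition and so could not be higher there. The other 67 were 43.5% of the 154 higher ones above 0 in both groups, against 29.9% of all 4211. Of the 438 lower ones above 0 in both groups, 77 (17.6%) were higher at 17 DAF, against 26.3%.

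At 27 DAF, 46 of the 615 (7.48%) were again higher and 179 of the 1264 (14.2%) again lower, or 6.09% of 755 higher and 17.0% of 1053 lower calls there. These shares lie near those over all listed unigenes at 27 DAF, of which 8.70% were higher and 12.1% lower. The 615 include 305 members of the presence set, which could not be higher there. Among unigenes above 0 in both groups at 22 DAF, 17 of the 154 higher ones (11%) were again higher, against 4.99% of all 4211. Of the 438 lower ones, 61 (13.9%) were again lower, against 10.5%. In the opposite direction, 25 of the 154 (16.2%) were lower in abnormal fruits at 27 DAF, against 10.5%. Another 302 of the 1264 lower ones (23.9%) were higher in abnormal fruits at 27 DAF, where they made up 40.0% of the higher calls. Of these 302, 265 were at 0 in A22, and the other 37 were 8.45% of the 438 lower ones above 0 in both groups, against 4.99% of all 4211. In the same direction at 17, 22 and 27 DAF were 14 higher and 36 lower unigenes. At 22 DAF only, among these 3 stages, were 514 of the higher calls (83.6%) and 979 of the lower ones (77.5%). The 514 include all 305 higher calls of the presence set, which by its definition could not be higher at 17 or 27 DAF.

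The assembly can split a gene into several unigenes. The listed unigenes belong to 8002 components, groups of sequences that the assembler joined, and 593 of these hold more than 1 listed unigene. Summed by component, 576 components were higher in abnormal fruits and 1154 lower. In 11 components 1 unigene was higher and another lower, and 8 of these 11 differed by 1 or less when summed.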

How the data were processed

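RNA of whole almond fruits was sequenced with oligo(dT) priming. The authors assembled unigenes with Trinity, aligned the reads to them with Bowtie2, estimated counts with RSEM and normalized these with DESeq2 (versions not given in the sources used here). The deposited unit is FPKM, 1 column per group, which the authors computed from effective length and library size and averaged over 3 samples. Each of the 8676 listed unigenes lies at least 1 in log2(FPKM + 1) away from N12 in some group, so counts cover such unigenes only. RSEM estimates and averaging leave no whole reads to recover, so the depth behind a value is unknown. Columns were joined on the unigene ID and compared with a pseudocount of 1 and a threshold of 1. The reference gene table held 0 of the unigene IDs, so names and best-match organisms come from the study's annotation, held in part, and no sequence is shown.

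Named in the text are the 25 unigenes the study names, the 10 largest rises and falls with a name and the 3 largest of all among unigenes above 0 in both groups, the 5 highest named ones at 0 in the other group in each direction, and up to 4 members with the largest difference in each of 18 lists at 5 FPKM or more, some of them only as counts. The members, lists and measures were chosen with earlier results of these data known. The counting code was run on simulated data with large changes in well-expressed unigenes only, which does not test the calls against a listed 0. Calculations used Python 3.11.15, numpy 2.4.6, pandas 2.3.3, scipy 1.17.1 and matplotlib 3.10.9.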

Additional observations from a re-analysis of the deposited data

How the results depend on the processing

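The counts of 1879 changed, 615 higher and 1264 lower unigenes depended on how low values were handled. A pseudocount of 0.1 gave 2838 changed and 1119 higher, and one of 5 gave 647 changed, 184 higher and 463 lower. A minimum of 5 FPKM in A22 or N22 gave 850, 238 and 612, and a threshold of 2 gave 703, 205 and 498. Without the 1246 unigenes of the presence set, an alternative chosen after seeing the data, 310 were higher, and among unigenes above 0 in both groups, also chosen later, 592 were changed, 154 higher and 438 lower. With at least 5 in place of 1 FPKM in the other group, 124 unigenes were at 0 in N22 and 314 at 0 in A22, and without the presence set 156 were at 0 in N22. The correlation of A22 and N22 of 0.871 was 0.759 as Spearman's rho, 0.793 with a pseudocount of 0.1 and 0.688 over unigenes with at least 5 FPKM. A minimum of 1 FPKM, scaling to the same total, both median-of-ratios scalings and sums per assembly component left all 3 counts within 1.5 times, and lower calls outnumbered higher ones in every setting over all listed unigenes. Of the 93 unigenes picked by the naming rule, 25 crossed the threshold of 1 in at least 1 setting, and no called one changed sign. The median-of-ratios scaling over 12 columns turned the sign of 4 of them. No paired analysis was possible because the deposited columns hold 1 mean per group, and leaving out each replicate was not run for the same reason. Depth behind single values is unknown, so a listed 0 is no proof of absence.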
